A study of Mus musculus with 2 samples.

Results

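Krt76+ Krt10-low keratinocytes are the gingival epithelial cells that hold mRNA of *Krt76* and *Krt24*, 2 keratins of cells that have left the basal layer, and little mRNA of *Krt10*, the type I keratin of the layers above. They were selected on keratin UMIs (unique molecular identifiers, 1 per captured RNA molecule) in 2 scRNA-seq libraries of mouse palatal gingiva, and numbered 1536 of the 6165 cells with at least 800 detected genes. Of these, 1303 were among the 4888 cells of the CpG ODN library and 233 among the 1277 cells of the *P. gingivalis* LPS library. A cell was taken when *Krt5*, *Krt14*, *Krt76*, *Krt24* and *Krt10* held at least 1% of its UMIs, when *Krt76* and *Krt24* gave at least 10 UMIs, when *Krt76*, *Krt24* and *Krt10* together reached 10% of *Krt5* and *Krt14*, when *Krt10* stayed below 0.05% of UMIs, and when 6 genes of mitosis gave fewer than 10 UMIs.

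Both groups were female wild type C57Bl6/J mice of 8 to 12 weeks. CpG ODN, a synthetic DNA oligonucleotide sensed by the toll-like receptor TLR9, or *P. gingivalis* LPS, sold as a ligand of TLR2/4, was placed on the palate as 3 µl of 1 µg/ml and kept under an oral appliance for 1 h. The gingiva was taken at day 4, and equal numbers of enzyme-released cells of 4 mice were combined into 1 library per ligand. Untreated gingiva was not analysed here, and neither library has a replicate. No test between ligands was therefore possible, every interval below is a 95% interval that covers counting error only, and the spread between mice is not known.

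The palatal gingiva is covered by a stratified squamous epithelium. Basal cells sit on the basement membrane, hold *Krt5* and *Krt14* keratin filaments and divide, and their daughters move outward while they change their keratins, build more desmosomes and at last form a cornified surface. *Krt76* is a type II keratin of the cells above the basal layer in the palate and gingiva, and *Krt24* is a type I keratin of differentiating keratinocytes. No position in the tissue was measured, so the cells are named here by the rule and not by a layer seen in a section.

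The genes that set the rule lie in the keratin clusters of chromosomes 15 and 11. In GRCm38, *Krt76* spans chr15:101884351-101892920, *Krt24* spans chr11:99279959-99285262 and *Krt10* spans chr11:99385254-99389364, all on the minus strand. The 250 bases before the start of each gene are shown (RefSeq, GRCm38.p6, 5′ to 3′ on the strand of the gene, chr15:101892921-101893170, chr11:99285263-99285512 and chr11:99389365-99389614), because these 3 genes separate the cells from both neighbours. Capitals mark, on either strand, the letters TATAAA (the TATA box), TGANTCA (the AP-1 motif) or CACCC (letters in sites of Krüppel-like factors).
Krt76: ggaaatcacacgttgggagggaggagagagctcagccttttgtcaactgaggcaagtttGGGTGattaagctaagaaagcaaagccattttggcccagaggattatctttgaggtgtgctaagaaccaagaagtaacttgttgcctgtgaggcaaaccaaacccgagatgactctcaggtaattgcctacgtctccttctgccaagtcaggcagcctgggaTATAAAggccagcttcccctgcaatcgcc
Krt24: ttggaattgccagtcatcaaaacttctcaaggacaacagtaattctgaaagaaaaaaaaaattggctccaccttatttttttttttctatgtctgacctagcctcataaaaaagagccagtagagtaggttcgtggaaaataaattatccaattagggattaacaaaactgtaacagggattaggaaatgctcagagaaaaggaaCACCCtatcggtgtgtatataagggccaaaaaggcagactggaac
Krt10: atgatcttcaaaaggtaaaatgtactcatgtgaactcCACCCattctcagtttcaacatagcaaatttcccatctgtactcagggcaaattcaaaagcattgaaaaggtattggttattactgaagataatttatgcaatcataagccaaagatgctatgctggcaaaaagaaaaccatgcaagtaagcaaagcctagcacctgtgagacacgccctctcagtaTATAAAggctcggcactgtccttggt
TATAAA begins 29 bases before the start in *Krt76* and 26 bases before it in *Krt10*, and is not in the *Krt24* window. CACCC is in all 3 windows, on the opposite strand in *Krt76*, where the printed letters are GGGTG. The AP-1 letters TGANTCA are in none of the 3. Among 32851 mouse promoter windows of the same length, 12.4% hold TATAAA, 6.75% hold TGANTCA and 52.0% hold CACCC, so a match is common and describes the letters only.

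Keratinocytes were split by the same UMIs. The 1568 basal cells had *Krt76*, *Krt24* and *Krt10* under 10% of *Krt5* and *Krt14*, the 1187 Krt10+ cells had *Krt10* at 0.05% of UMIs or more, 232 dividing cells had 10 or more UMIs of mitosis genes and 7 cells had too few keratin UMIs for the rule. Krt76+ Krt10-low cells made up 35.6% of the keratinocytes after CpG ODN (1303 of 3660, exact binomial interval 34.0 to 37.2%) and 26.8% after LPS (233 of 870, 23.9 to 29.9%). When the rule was applied after every cell had been thinned to 5000 UMIs, the shares were 36.3% and 27.1%. The intervals did not overlap, but each share comes from 1 tube of combined cells, and how much such shares vary between tubes is not known.

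The libraries differed in depth. The cells had median depths of 13615 (CpG ODN) and 27075 UMIs (LPS), with 4.70% and 5.29% of UMIs from mitochondrial genes. Levels were therefore compared after each cell had been thinned at random to 5000 UMIs. Shallower cells, 33 after CpG ODN and 1 after LPS, could not enter, and UMIs summed over the remaining 1270 and 232 cells were expressed per 1000000 UMIs (CPM). The libraries shared 5 barcodes, of which 1 belonged to a Krt76+ Krt10-low cell. Markers of other cell types were low in them. The 4 B cell markers summed to 4.57 CPM after CpG ODN and 0.862 CPM after LPS, where 3 were at 0, the 7 myeloid markers to 7.09 and 0.862 CPM, where 6 were at 0, and the 4 endothelial markers to 0.315 and 0 CPM. The 5 T cell markers summed to 44.7 and 45.7 CPM with *Trbc2* as the highest, and 4 of them were at 0 after LPS. The 6 fibroblast markers summed to 124 and 81.9 CPM with *Dcn* as the highest, and 1 of them was at 0 after CpG ODN and 4 after LPS. Hemoglobin markers summed to 644 and 629 CPM and sat in few cells, since 21 of the CpG ODN cells and 4 of the LPS cells had 3 or more of their UMIs. The part of these RNAs in the results was not tested.

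The 6 markers of these cells, of which *Krt76* and *Krt24* belong to the rule, were higher than in basal cells in both libraries. *Krt76* was found at 9250 CPM (9175 to 9325) after CpG ODN and 10354 CPM (10170 to 10541) after LPS, between 712 and 546 CPM in basal cells and 28647 and 29408 CPM in Krt10+ cells. *Krt24* was found at 3577 and 3751 CPM, against 441 and 380 in basal cells and 10758 and 10521 in Krt10+ cells. *Krt5* stood at 3431 and 3321 CPM, between 6371 and 6504 in basal cells and 601 and 561 in Krt10+ cells, while *Krt14* stood at 23666 and 21637 CPM, near its level in basal cells (20780 and 19661) and in Krt10+ cells (17845 and 16747). These levels follow from the rule and are a description. *Fabp5*, which carries fatty acids in the cell and was not part of the rule, stood at 11054 and 11703 CPM against 1522 and 1991 in basal cells. *Krt6a*, a keratin of oral and injured epithelium, stood at 7364 and 7057 CPM against 2842 and 2676. *Dsg1a*, a desmosomal cadherin, stood at 388 and 459 CPM against 108 and 117, and all 3 genes were higher again in Krt10+ cells. *Lgi2*, a secreted leucine-rich repeat protein, was the marker with its highest level in the Krt76+ Krt10-low cells, at 133 and 147 CPM against 37.3 and 21.6 in basal cells and 92.1 and 98.8 in Krt10+ cells.

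**Figure D1:**
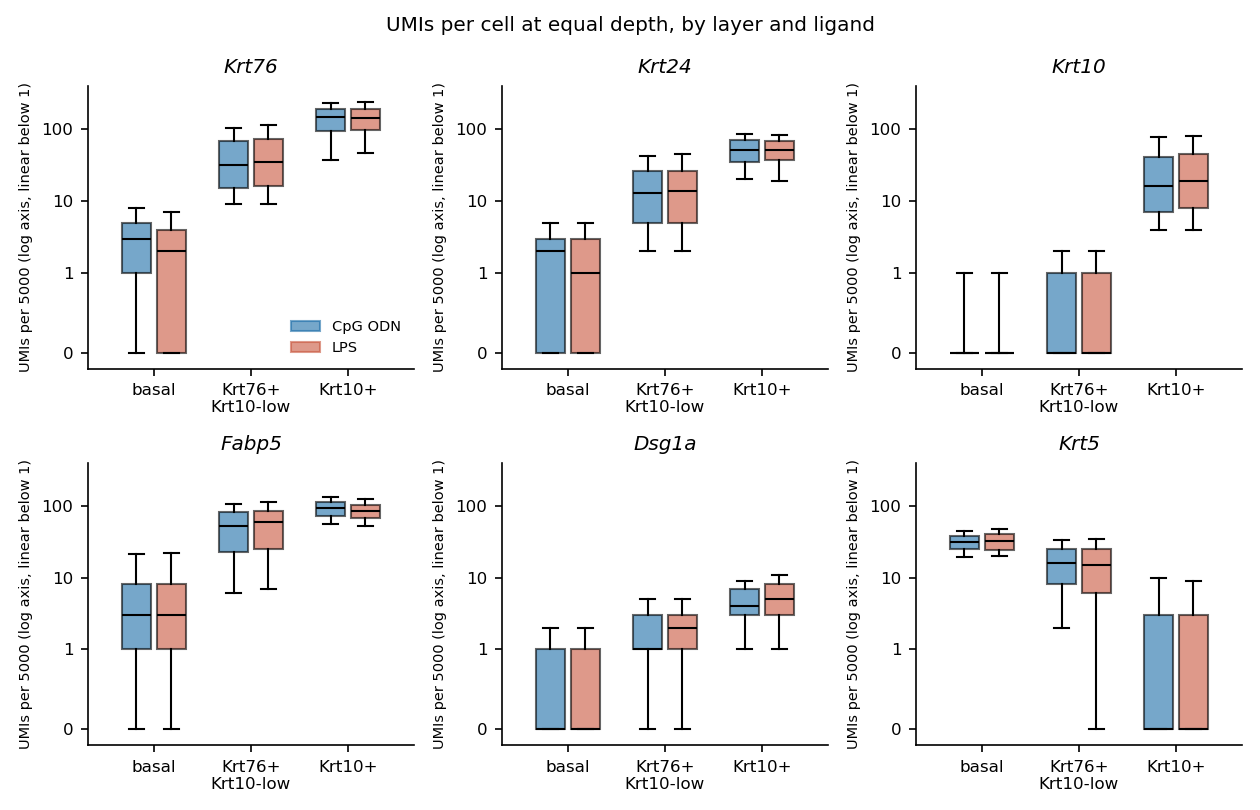
UMIs per cell after thinning to 5000 UMIs, for 6 genes in basal, Krt76+ Krt10-low and Krt10+ keratinocytes of the CpG ODN library (blue) and the LPS library (red). Boxes span the quartiles with the median as a line, whiskers span the 10th to 90th percentiles of cells, and the axis is logarithmic above 1. The median *Krt76* cell held 32 UMIs in the CpG ODN library and 34.5 in the LPS library, and the boxes of the libraries lie at about the same height in each layer.

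Single cells spread widely around these levels. The median cell held 32 *Krt76* UMIs after CpG ODN and 34.5 after LPS, with 9 UMIs at the 10th percentile of both libraries and 105 and 119 at the 90th. The median cell held 13 and 14 *Krt24* UMIs and 52.5 and 58.5 *Fabp5* UMIs. *Krt10* was at 96.2 and 132 CPM, and 526 of 1303 and 54 of 233 cells had no *Krt10* UMI at full depth. At 1500 UMIs per cell, *Krt76* was found in 97.9% and 97.4% of the cells, against 16.7% and 9.62% of fibroblasts, which should lack it, where median depths before thinning were 4154.5 and 8736.5 UMIs, and 20.3% and 16.7% of B cells, where they were 3041 and 3264.5. *Krt10* was found in 12.7% and 15.0% of the Krt76+ Krt10-low cells at that depth, in 4.78% and 13.5% of fibroblasts (10 of 209 and 7 of 52) and in 2.62% and 0% of B cells (13 of 497 and 0 of 72, with an exact upper bound of 4.99%). The references thus differed from each other after LPS, and low *Krt10* counts in single cells are not read as expression.

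The cells just inside and just outside the limits of the rule were as follows. After CpG ODN, 143 cells just inside the keratin limit (10 to 12.5%) held *Krt76* at 2043 CPM and *Col17a1* at 972 CPM, and 136 basal cells just outside it (8 to 10%) held 1660 and 994 CPM. After LPS, 23 cells inside held *Krt76* at 2035 CPM and *Col17a1* at 1061 CPM, and 29 cells outside held 1517 and 793 CPM. *Fabp5* stood at 3505 CPM inside and 2513 CPM outside after CpG ODN, and at 4565 and 4407 CPM after LPS. *Lgi2* stood at 58.7 CPM inside and 67.6 CPM outside after CpG ODN, and at 69.6 and 75.9 CPM after LPS. *Selenbp1* stood at 133 CPM inside and 104 CPM outside after CpG ODN, and at 52.2 and 89.7 CPM after LPS. No intervals are given for these levels, and the LPS values come from 23 and 29 cells. No direction is therefore read from the low levels of *Lgi2* and *Selenbp1*. At the other limit, 36 and 17 cells had *Krt10* at 0.04 to 0.05% of UMIs, and 52 and 12 Krt10+ cells had 0.05 to 0.0625%.

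Against basal cells of the same library, 45 of 2092 genes with a mean of at least 50 CPM (2.15%) were at least 2-fold higher in the Krt76+ Krt10-low cells in both libraries, and 53 (2.53%) were at least 2-fold lower. The layers were set by keratin UMIs of the same cells, so these counts describe the split and no test was made. By the smaller of its 2 ratios the first gene was *Selenbp1*, a selenium-binding protein that oxidizes methanethiol, at 964 and 1422 CPM against 48.9 and 53.1 in basal cells (19.7-fold, 17.5 to 22.3, and 26.8-fold, 21.6 to 33.7). *Serpinb12*, a serine protease inhibitor of surface epithelia, followed at 100 and 165 CPM against 6.88 and 4.32. *Mt4*, the metallothionein of stratified squamous epithelium, was 8.39-fold and 7.68-fold higher, at 7390 and 7490 CPM. *Krt13*, the type I keratin of non-cornified mucosa, was 8.06-fold and 5.33-fold higher, and *Tgm3*, a transglutaminase that crosslinks the cornified envelope, 9.34-fold and 5.54-fold. *Rbp7*, a retinol-binding protein, *Aldh3b2*, an aldehyde dehydrogenase that acts on lipid aldehydes, *Calm4*, a calcium-binding protein of the epidermis, and *Pmvk*, the phosphomevalonate kinase of the cholesterol pathway, were between 4.36-fold and 13.7-fold higher in either library.

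Among the genes with the lowest ratios to basal cells were the following. *Pappa*, a protease that frees insulin-like growth factor, stood at 30.2 and 13.8 CPM against 214 and 248. *Ccnd2*, a cyclin of the G1 phase, stood at 86.0 and 83.6 CPM against 400.3 and 402, and *Jag2*, a Notch ligand, at 31.7 and 25.9 CPM against 125 and 119. *Sparc*, a matrix protein, *Lamb3*, a chain of laminin 332, and *Cav1*, the coat protein of caveolae, were also at less than 0.5 times the basal level in both libraries. *Dcn*, the proteoglycan decorin of connective tissue, stood at 115 and 81.0 CPM against 507 and 693, and the fibroblast markers that include it summed to 521 and 693 CPM in basal cells, with 4 of 6 at 0 after LPS. The part of fibroblast RNA in the *Dcn* level was not tested. The 4 simple epithelium markers summed to 6.30 and 6.03 CPM in the Krt76+ Krt10-low cells, against 58.4 and 307 CPM in basal cells. The part of such cells in these lower levels was not tested either. *BC037156* had the lowest ratio, at 3.46 and 4.31 CPM against 636 and 2832, but its basal level sat in 30 of 1191 and 24 of 324 basal cells, and the 2 highest of them held 47.5% and 35.8% of its UMIs.

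**Figure D2:**
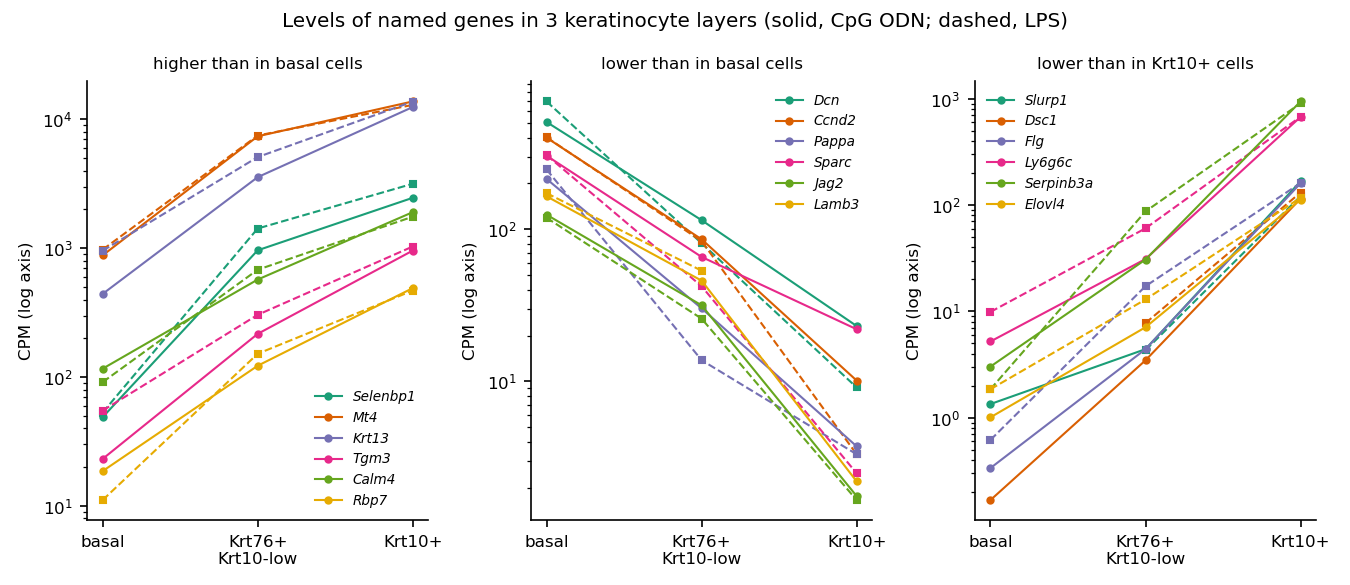
CPM at equal depth (log axis) of 18 named genes in basal, Krt76+ Krt10-low and Krt10+ keratinocytes, with CpG ODN as solid lines and LPS as dashed lines. Each point is 1 library, levels of 0 are left out, and genes of the left panel step up, those of the middle panel step down and those of the right panel are low until the Krt10+ cells.

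The border to the Krt10+ cells was marked by more genes that were lower in the Krt76+ Krt10-low cells. Of 1956 genes, 53 (2.71%) were at least 2-fold higher in the Krt76+ Krt10-low cells in both libraries and 110 (5.62%) at least 2-fold lower, beside a median log2 ratio over all genes of 0.13 after CpG ODN and 0.12 after LPS. This split depends on the scaling. Mitochondrial and ribosomal protein genes held 38.1% and 37.8% of the UMIs of the Krt76+ Krt10-low cells and 31.7% and 32.4% of those of the Krt10+ cells. Without them in the CPM 139 genes were higher and 133 lower, with the median over the same genes shifted by 0.14 and 0.12. The set of genes that passes 50 CPM changes with this scaling too, so 139 and 133 are not shares of the 1956 genes. *Igfbp3*, which binds insulin-like growth factors, stood at 177 and 242 CPM against 8.81 and 8.30. *Col17a1*, the transmembrane collagen of the hemidesmosome, stood at 416 and 469 CPM against 34.8 and 33.2, and its partners *Itgb4* and *Itga6* were 11.2-fold and 4.10-fold higher after CpG ODN and 7.70-fold and 3.56-fold higher after LPS. *Ccnd1*, another G1 cyclin, was 4.51-fold and 5.73-fold higher.

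The following genes were among those with the lowest ratios to Krt10+ cells. *Slurp1*, a secreted Ly6 protein, stood at 4.41 and 4.31 CPM against 167 and 121 in Krt10+ cells. *Dsc1*, the desmocollin of the upper layers, stood at 3.46 and 7.76 CPM against 115 and 131. *Flg*, which aggregates keratin filaments, was found in 10 of 1270 and 3 of 232 cells, at 4.41 and 17.2 CPM against 160.4 and 161. *Elovl4*, which lengthens fatty acids for barrier ceramides, *Klk14*, a protease of shedding, and *Acer1*, a ceramidase, were each at 12.9 CPM or less, against 99.1 CPM or more in the Krt10+ cells. *Serpinb3a* stood at 30.7 and 87.1 CPM against 942 and 905, and *Krt1*, the type II partner of *Krt10*, at 21.6 and 58.6 CPM against 305 and 602.

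The gene lists were chosen with earlier results of these data known and are given by their counts. Of 20 keratins 12 passed the level limit against basal cells, and 7 of them (*Krt13*, *Krt4*, *Krt6a*, *Krt16*, *Krt76*, *Krt24* and *Krt10*) were at least 2-fold higher, beside 2.15% of all genes, though the last 3 belong to the rule. In the LPS library 2 cells held 64.1% of the *Krt4* UMIs, and without them *Krt4* stood at 98.3 CPM, against 98.1 CPM in basal cells. Against Krt10+ cells 14 passed, of which *Krt5* and *Krt15* were at least 2-fold higher and 9 at least 2-fold lower, beside 2.71% and 5.62% of all genes. *Krt5* among the higher and *Krt10*, *Krt76* and *Krt24* among the lower belong to the rule, and nothing is read from these counts. Of 16 desmosome genes 9 passed against basal cells, and *Dsg1a* and *Dsc2* were at least 2-fold higher, beside 2.15% of all genes. Against Krt10+ cells 13 passed, and *Dsc1*, *Evpl*, *Ppl* and *Dsg1a* were at least 2-fold lower, beside 5.62%. *Dsp*, the desmosomal plaque protein, stood at 1878 and 1816 CPM against 1384 and 1159 in basal cells and 2467 and 2397 in Krt10+ cells. Of 15 hemidesmosome and basement membrane genes, 10 passed the level limit against basal cells and 7 were at least 2-fold lower, beside 2.53% of all genes, with a list median log2 ratio of -1.21 after CpG ODN and -1.30 after LPS beside -0.03 and -0.04 over all genes. Of 26 cornified envelope genes 25 were in the files, 5 of 8 that passed (*Tgm3*, *Sbsn*, *Calml3*, *Mt4* and *Ly6d*) were at least 2-fold higher than in basal cells, beside 2.15% of all genes, and 9 of 14 were at least 2-fold lower than in Krt10+ cells, beside 5.62%. Among 33 transcription factors of the layers, *Trp63*, the factor of the basal programme, was at least 2-fold higher than in Krt10+ cells, at 141 and 139 CPM against 66.5 and 51.5, and *Ovol1* and *Hopx* were at least 2-fold lower.

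Of 28 genes of retinoid and fatty acid handling, *Fabp5* alone of 5 that passed was at least 2-fold higher than in basal cells, beside 2.15% of all genes, and 6 of 11 were at least 2-fold lower than in Krt10+ cells, beside 5.62% of all genes. Among these 6, *Rbp2*, a retinol-binding protein, stood at 49.3 and 78.4 CPM against 390.3 and 375, and *Crabp2*, which carries retinoic acid, at 23.5 and 38.8 CPM against 90.5 and 99.6. Of 18 cholesterol synthesis genes, 2 passed the level limit against basal cells and 4 against Krt10+ cells, and none of these was past 2-fold in both libraries, too few genes to read against the shares of all genes (2.15% higher and 2.53% lower, and 2.71% and 5.62%). *Pmvk*, described above, is not in that list. Of 31 proteases and inhibitors 30 were in the files. Against basal cells 12 passed, with *Spink5* and *Serpinb12* at least 2-fold higher and *Ctsl* at least 2-fold lower, beside 2.15% and 2.53% of all genes. Against Krt10+ cells 15 passed, of which 0 were at least 2-fold higher and 7 at least 2-fold lower, beside 2.71% and 5.62%. *Spink5*, an inhibitor of kallikreins of the skin, stood at 264 and 298 CPM, between 78.4 and 80.9 in basal cells and 1245 and 1171 in Krt10+ cells.

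In the Notch pathway, *Notch1* stood at 173 and 178 CPM, against 153 and 128 in basal cells and 61.7 and 80.5 in Krt10+ cells. *Notch3* stood at 40.2 and 53.4 CPM against 9.07 and 9.26 in basal cells and 34.6 and 46.5 in Krt10+ cells. It is also a gene of mural cells, and the 4 mural markers, of which it is the highest, summed to 50.4 and 54.3 CPM with 0 and 2 of them at 0. The ligand *Jag1* stood at 75.6 and 58.6 CPM, against 62.5 and 53.7 in basal cells. The target *Nrarp*, a feedback inhibitor of Notch, was at 58.3 and 81.0 CPM, between 23.5 and 31.5 in basal cells and 102 and 130.3 in Krt10+ cells, and *Hes1*, another target, was at 141 and 150 CPM beside 144 and 220 in basal cells.

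A few genes had their highest level in the Krt76+ Krt10-low cells. By a limit set after the values were seen, 10 of 2146 genes (0.466%) were at least 1.25 times higher than in both neighbours in both libraries. The 2146 genes were chosen by their level in the Krt76+ Krt10-low cells alone. A gene such as *Dact2* could therefore enter through the cells in which it was high. The count is thus a description and no test of a peak. The 10 genes were *Dact2*, *Gstp1*, *Lgi2*, *Fam162a*, *Ctsc*, *Dapk2*, *Mgst1*, *Tfap2a*, *Cycs* and *Txn1*. In the LPS library the counting interval included 1 for *Tfap2a* against Krt10+ cells (1.29, 0.912 to 1.84). It also did for *Mgst1* against basal cells (1.40, 0.996 to 1.96). *Gstp1*, a glutathione transferase, stood at 201 and 291 CPM against 130 and 191 in basal cells and 123 and 179 in Krt10+ cells. *Txn1*, the thioredoxin that reduces protein disulfides, stood at 1476 and 1563 CPM against 1170 and 1107 and against 1148 and 1090, and *Fam162a*, a mitochondrial protein of the hypoxia response, at 680.2 and 722 CPM against 434 and 405 and against 508 and 510. *Dact2*, an intracellular protein that binds Dishevelled, stood at 51.2 and 59.5 CPM against 27.0 and 26.5 and against 29.1 and 35.7. By the smallest of its ratios to the neighbours, the step of each gene lay between 1.26-fold (*Txn1*) and 1.67-fold (*Dact2*). Single steps were larger, such as those of *Lgi2*, 3.56-fold and 6.78-fold above basal cells. Without mitochondrial and ribosomal protein genes in the CPM, 8 of the 10 genes passed the same limit.

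The cells were also divided by *Krt76* and *Krt24* as a share of *Krt5* and *Krt14*. After CpG ODN, 512 cells (40.3%) had a share under 25%, 576 (45.4%) a share of 25 to 100% and 182 (14.3%, 12.4 to 16.4%) a share of 100% or more, and after LPS the counts were 82 (35.3%), 109 (47.0%) and 41 (17.7%, 13.0 to 23.2%). Over these 3 groups *Krt13* was found at 848, 2759 and 13732 CPM after CpG ODN and at 1622, 2785 and 18190 CPM after LPS. *Selenbp1* was found at 268, 1199 and 2179 CPM and at 415, 1580 and 3020 CPM. *Fabp5* was found at 5693, 13446 and 18568 CPM and at 5883, 13356 and 18951 CPM, with the larger step between the first and the second group. *Col17a1* was found at 752, 228 and 63.7 CPM and at 854, 336 and 53.7 CPM, the opposite order. *Serpinb3a*, at 1.95, 11.8 and 171 CPM and at 2.44, 12.8 and 454 CPM, was highest in the third group. *Txn1* had the order of *Col17a1* with smaller steps, at 1617, 1459 and 1134 CPM and at 1732, 1593 and 1146 CPM.

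*Krt15* and *Krt16* were seldom found in the same cell. *Krt15* is a type I keratin best known from basal cells, and *Krt16* and *Krt17* are keratins of activated epithelium. This split was chosen after the values were seen. With 5 UMIs per 5000 as the limit, *Krt15* was present in 389 of 1270 CpG ODN cells (30.6%) and in 86 of 232 LPS cells (37.1%). Among them 13.9% (10.6 to 17.7%) and 9.30% (4.10 to 17.5%) also had *Krt16*, against 46.2% (42.9 to 49.6%) and 50.7% (42.3 to 59.0%) of the cells with less *Krt15*. The same direction was found in each of the 3 groups by keratin share and in both libraries. *Krt16* and *Krt17* were found together more often. Of 256 and 50 cells with *Krt17*, 57.0% and 68.0% had *Krt16*, against 31.1% and 26.4% of the rest.

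**Figure D3:**
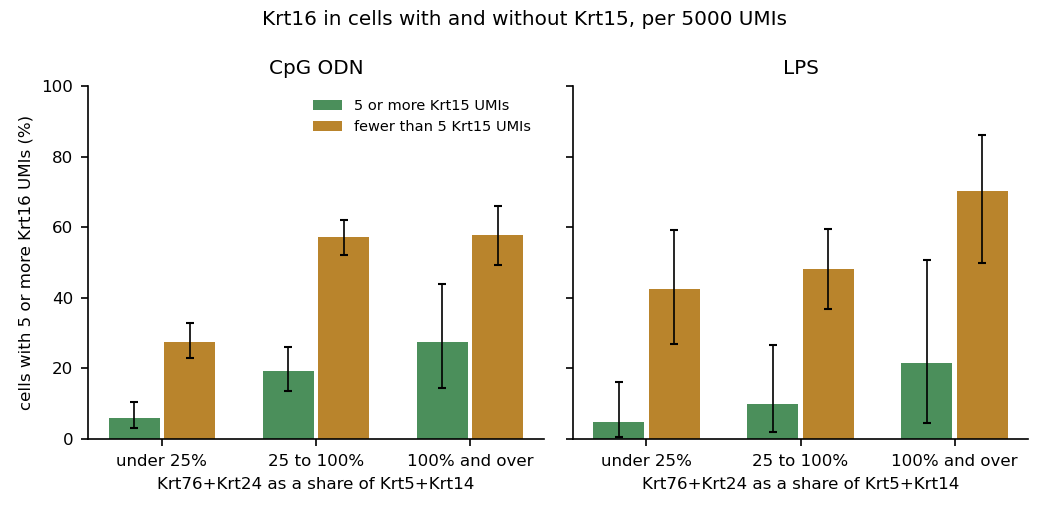
Share of Krt76+ Krt10-low cells with 5 or more *Krt16* UMIs per 5000, for cells with 5 or more *Krt15* UMIs (green) and with fewer (ochre), in 3 groups by keratin share (horizontal axis) and 2 libraries (panels). Bars are shares with 95% exact binomial intervals for counting error, and the green bar is the lower one in all 6 pairs.

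A second split set *Krt15* against *Krt17*. After CpG ODN, 330 cells had *Krt15* without *Krt17* and 197 had *Krt17* without *Krt15*, and after LPS 76 and 40. *Cck*, the gene of the peptide cholecystokinin, stood at 159 CPM in the former and 19.3 CPM in the latter after CpG ODN (8.26-fold, 5.19 to 13.9), and at 161 and 20.0 CPM after LPS. *Lgi2* was 2.03-fold and 2.01-fold higher in the *Krt15* cells. *Sbsn*, a secreted protein of the upper layers, stood at 67.3 CPM in *Krt15* cells and 442 CPM in *Krt17* cells after CpG ODN and at 97.4 and 745 CPM after LPS, and *Calm4* stood at 257 and 1011 CPM and at 339 and 1235 CPM. *Krt76* was 0.814 and 0.542 times as high in the *Krt15* cells as in the *Krt17* cells. These ratios are pooled over the 3 groups by keratin share. After LPS the *Krt17* cells without *Krt15* numbered 10, 18 and 12 in those groups, and all cells with *Krt15* 42, 30 and 14. After CpG ODN the counts were 95, 70 and 32, and 182, 167 and 40. The part of the keratin share in these ratios was not tested. Some genes differed in direction between the libraries, among them *Igfbp3*, with ratios of 0.562 after CpG ODN and 2.34 after LPS, *Krt13* with 1.32 and 0.751 and *Fos* with 0.695 and 1.33.

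Between the ligands, the Krt76+ Krt10-low cells were close to each other. Of 2146 genes with a mean of at least 50 CPM, 1 gene (0.0466%) was at least 2-fold higher after CpG ODN and 3 genes (0.14%) at least 2-fold lower, 35 genes were past 1.5-fold, and the median log2 ratio was 0.01. With 1 library per ligand none of these differences has a replicate check. *Krt76* and *Krt24* had ratios of 0.893 (0.876 to 0.911) and 0.954 (0.923 to 0.985).

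**Figure D4:**
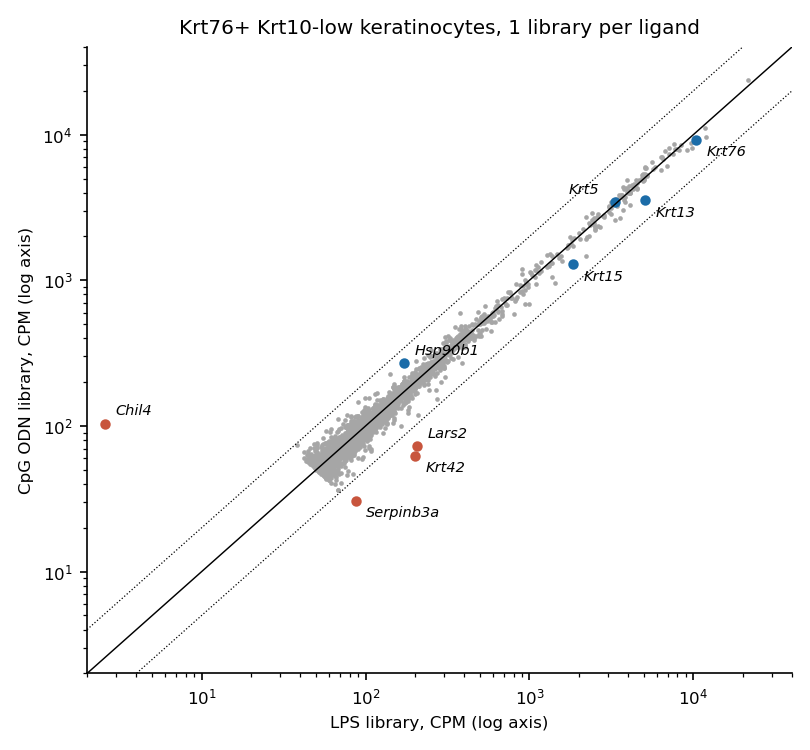
CPM of 2146 genes in Krt76+ Krt10-low cells after LPS (horizontal, log axis) and after CpG ODN (vertical, log axis), 1 point per gene and 1 library per ligand, with the line of equality and dotted lines at 2-fold. The 4 genes past 2-fold are in red, and Chil4, Krt42 and Serpinb3a rest on few cells.

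Of the 4 genes past 2-fold, 3 rested on few cells. *Chil4*, a chitinase-like secreted protein whose close paralog *Chil3* could share reads with it, stood at 104 CPM after CpG ODN and 2.59 CPM (3 UMIs) after LPS, a ratio of 40.1 (13.7 to 195) that ran from 8.21 to 116 over the alternative settings. Its UMIs sat in 26 of 1270 and 2 of 232 cells, and 2 cells of the CpG ODN library with 299 and 168 UMIs held 70.9% of them. In Krt10+ cells it stood at 81.1 and 64.7 CPM, again from few cells. It was found there in 26 of 908 and 3 of 241 cells, and 2 cells of each library held 52.4% and 97.4% of its UMIs. *Krt42*, a keratin of the chromosome 11 cluster (chr11:100262882-100269871), stood at 62.5 and 202 CPM (ratio 0.310), and 2 of the 9 LPS cells that had it held 97.0% of its UMIs. Without the 2 highest cells of each library its ratio was 4.51 (2.14 to 11.4), the opposite direction. *Serpinb3a* (chr1:107045587-107052303), of a family of near-identical protease inhibitors, stood at 30.7 and 87.1 CPM (ratio 0.353, 0.276 to 0.453), was found in 4.17% and 9.48% of cells, and had a ratio of 1.04 in Krt10+ cells, where it was found in 53.0% and 51.9%. Its ratio ran from 0.338 to 0.919 over the alternative settings, so it was not past 2-fold in all of them. *Lars2* (chr9:123366927-123462666), the mitochondrial leucyl-tRNA synthetase, stood at 72.8 and 206 CPM (0.353, 0.301 to 0.415) and was found in 25.3% and 47.0% of cells. Its ratio was 0.436 (0.366 to 0.521) without the 2 highest cells of each library. *Lars2* was lower after CpG ODN in basal cells (ratio 0.419) and Krt10+ cells (0.597) too. The transcripts *Gm42418* (1477 and 2202 CPM), *AY036118* (123 and 182 CPM) and *Gm26917* (89.9 and 128 CPM) were also lower after CpG ODN in the Krt76+ Krt10-low cells. Whether the *Lars2* difference shares a source with theirs, such as background RNA of a library, was not tested.

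Several genes were higher after CpG ODN by less than 2-fold at 5000 UMIs per cell. *Hsp90b1*, the chaperone of the endoplasmic reticulum, stood at 269.8 CPM (257 to 283) after CpG ODN and 172 CPM (149 to 198) after LPS and was found in 68.6% and 55.2% of cells. Its ratio of 1.56 (1.35 to 1.82) stood beside 1.34 in basal cells and 1.67 in Krt10+ cells, and *Hspa5*, the other main chaperone of that compartment, had 1.27 (1.10 to 1.49). *Crip1*, a small zinc-binding LIM protein, stood at 594 and 379 CPM (1.57, 1.42 to 1.73), *Tppp3*, which binds tubulin, at 226 and 141 CPM (1.60, 1.36 to 1.89) and *Sgk1*, a kinase induced by serum and glucocorticoids, at 112 and 68.1 CPM (1.64, 1.30 to 2.10). Over the alternative settings the ratio of *Crip1* ran from 1.19 to 2.13 and that of *Sgk1* from 1.20 to 2.64. *Sox21*, a transcription factor, had the second highest ratio among the genes named by the rule, 1.94 (1.42 to 2.71), at 73.7 and 37.9 CPM, and was found in 29.4% and 16.8% of cells. Its ratio ran from 1.47 to 6.08 over the alternative settings. *Krt17* had a ratio of 1.33 (1.24 to 1.42), and of 1.70, 0.920 and 1.94 in the 3 groups by keratin share.

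Lower levels after CpG ODN were found for some genes that were higher than in basal cells, and not for others, such as *Krt6a* (ratio 1.04) and *Mt4* (0.987). *Selenbp1* stood at 964 and 1422 CPM (0.678, 0.642 to 0.716), *Krt13* at 3561 and 5097 CPM (0.699, 0.679 to 0.719) and *Tgm3* at 217 and 304 CPM (0.712, 0.633 to 0.802). *Ces1h*, a carboxylesterase, *Sult2b1*, which sulfates cholesterol, *Cyp4f39*, a fatty acid hydroxylase, and *Gjb2*, the connexin 26 of gap junctions, had ratios of 0.570, 0.530, 0.536 and 0.561, that of *Sult2b1* ran from 0.346 to 0.868 over the alternative settings, and that of *Cyp4f39* was 1.19 with cells thinned to 2500 UMIs. The keratin share itself had a median of 32.7% after CpG ODN and 41.6% after LPS. With both libraries weighted to the same mix of the 3 groups by keratin share, the ratio was 0.788 for *Krt13*, 0.733 for *Selenbp1* and 0.758 for *Tgm3*, and within the 3 groups that of *Krt13* was 0.523, 0.990 and 0.755. *Krt15* stood at 1289 and 1844 CPM (0.699, 0.667 to 0.734), with 1242 and 2598, 1263 and 1156, and 1508 and 2166 CPM in the 3 groups by keratin share, so its direction was not the same in all 3. *Krt4*, a keratin of non-cornified mucosa, had a ratio of 0.560, and of 0.997 (0.815 to 1.23) without the 2 highest cells of each library.

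**Figure D5:**
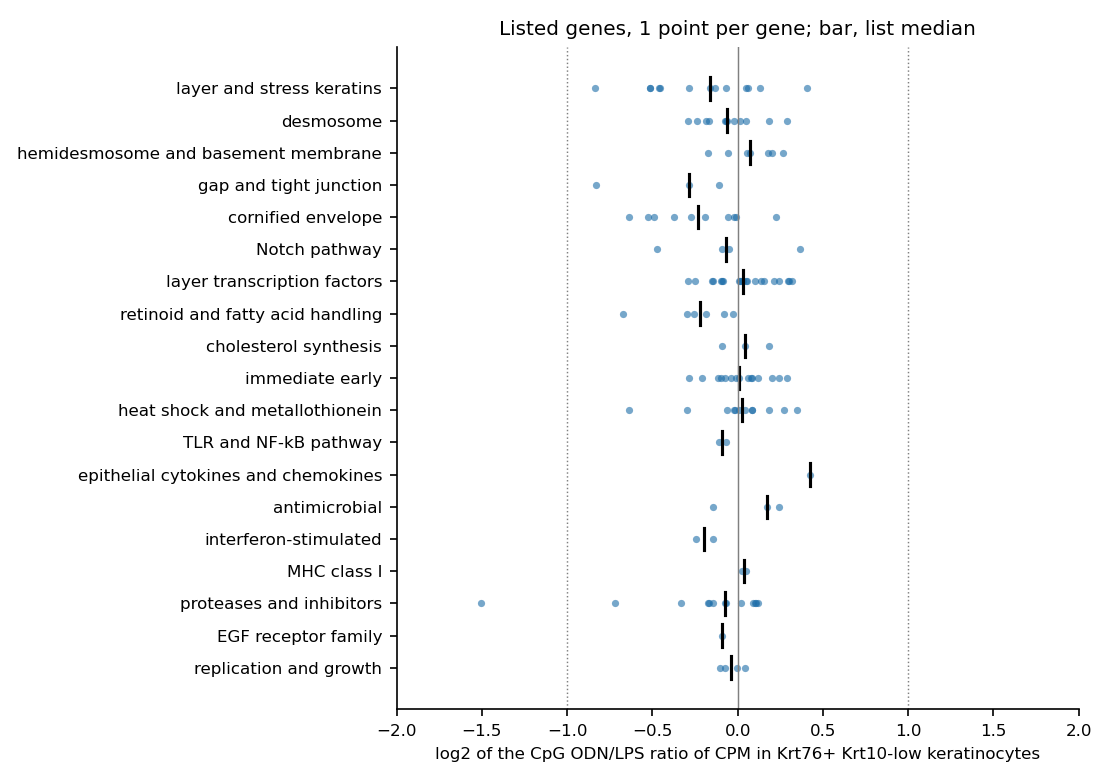
log2 of the CpG ODN/LPS ratio of CPM in Krt76+ Krt10-low cells (horizontal axis) for the genes of 19 lists with a mean of at least 50 CPM (rows), 1 point per gene, with the list median as a black bar and dotted lines at 2-fold. Each point compares 1 library with 1 library, and *Serpinb3a*, among the proteases and inhibitors, is the only listed gene past a dotted line.

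The receptors of the ligands gave few UMIs. *Tlr9*, the receptor of CpG ODN, gave 0 UMIs in 1270 and 0 in 232 cells, where 3 UMIs would be 0.472 and 2.59 CPM. *Tlr2* gave 5 and 1 UMIs and *Tlr4* 9 and 2, at or under 1.72 CPM, so their levels could not be compared at this depth. *Myd88*, the adaptor of these receptors, stood at 15.4 and 15.5 CPM. Of 33 TLR and NF-kB pathway genes 2 passed the level limit, *Nfkbia* at 207 and 223 CPM and *Nfkbiz* at 75.6 and 79.3 CPM, both inhibitors or modulators induced by NF-kB, and the summed list stood at 603 and 647 CPM (ratio 0.932, 0.862 to 1.01).

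Few genes of the immune lists reached the level limit, and with 0.0466% and 0.14% of all genes past 2-fold in either direction, none past it in such short lists is no result about them. Of 30 epithelial cytokines and chemokines 28 were in the files and 1 passed, *Cxcl14*, a chemokine of resting epithelium, at 90.4 and 67.2 CPM (1.34, 1.06 to 1.73). *Ccl20*, which attracts cells bearing CCR6, stood at 24.6 and 25 CPM and *Il1a* at 3 and 0 UMIs. The summed cytokine and chemokine list stood at 303 and 259 CPM (1.17, 1.04 to 1.33). Of 28 interferon-stimulated genes 26 were in the files and 2 passed, *Ifitm3* at 136 and 150 CPM and *Ifi27* at 109 and 129 CPM, and the summed list stood at 354 and 378 CPM (0.938, 0.846 to 1.04). The MHC class I genes that passed, *H2-K1* and *H2-D1*, had ratios of 1.02 and 1.03. Of 20 antimicrobial genes 3 passed, and the summed list stood at 482 and 551 CPM (0.875, 0.803 to 0.954). Single cells held up to 198 and 88 UMIs of this list, beside a median of 2 and 2. *Slpi*, an inhibitor of leukocyte proteases, stood at 67.1 and 59.5 CPM, with 65.5% and 88.4% of its UMIs in 2 cells of each library, and without those cells its ratio was 3.33 (1.65 to 7.86) in place of 1.13.

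Stress lists were close between ligands as well. The 20 immediate early genes, induced within minutes by many stimuli including tissue digestion, summed to 6228 and 6067 CPM (1.03, 1.00 to 1.05), and a median cell held 20 and 16 of their UMIs, with 4 and 4 at the 10th percentile and 74.1 and 78.9 at the 90th. *Fos* stood at 1082 and 1036 CPM and *Egr1* at 374 and 306 CPM. The heat shock and metallothionein genes summed to 18701 and 18020 CPM, of which *Mt4* made up 7390 and 7490 CPM, and *Hspa1a*, an inducible chaperone, had the lowest ratio of them, 0.642 (69.1 and 108 CPM). The desmosome list had a median log2 ratio of -0.06, the cornified envelope list of -0.23 and the list of layer keratins of -0.16, beside 0.01 over all 2146 genes.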

How the data were processed

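scRNA-seq was done on palatal gingiva with 1 library per ligand. The authors deposited counts, filtered gene by cell tables of UMIs made with Cell Ranger 4.0.0 per the file headers. The genome build was not given in the sources used here. The tables hold 6219 and 2016 barcodes with 72173148 and 38656738 UMIs (CpG ODN and LPS) over 32285 genes. The filter of at least 800 genes left 4888 and 1277 cells with a median of 11077.5 and 22680 UMIs. No doublet caller was run, and doublets were kept in the main values and addressed by an alternative without the 5% of cells with the most UMIs.

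The members, the rule and the gene lists were chosen with earlier results of these data known. Each cell was thinned to 5000 UMIs without replacement with a fixed seed, UMIs were summed per library and layer and expressed per 1000000 UMIs (CPM), and folds needed a mean of at least 50 CPM. Intervals are 95% and cover counting error only (Poisson for levels, conditional binomial for ratios, Clopper-Pearson for shares), and UMIs of 1 cell are not independent. Named genes were those of the rule and of the lists that passed 50 CPM, and the 12 highest and 12 lowest ratios between ligands and against each neighbouring layer, leaving out mitochondrial, ribosomal protein, hemoglobin, immunoglobulin, X-inactivation and predicted genes. Genes named for receptors, few cells, the highest level in the members or the *Krt15* and *Krt17* split were chosen after their values were seen, as was the alternative without 2 cells. With 1 library per ligand no test was made. The fold and interval steps were tested on simulated data in which all cells of a library shared 1 profile. Spread between cells was not part of that test, so it does not bear on genes whose UMIs sit in few cells. Gene positions are of GENCODE M21, and promoters are from RefSeq, GRCm38.p6. Python 3.11.15, numpy 2.4.6, scipy 1.17.1, pandas 2.3.3 and matplotlib 3.10.9 were used. 1 gene of the lists is not reported here.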

Additional observations from a re-analysis of the deposited data

Results flagged for a closer look

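The ligand ratio of *Dcn* had opposite directions in neighbouring layers, at 1.42 (1.14 to 1.78) in the Krt76+ Krt10-low cells and 0.733 (0.684 to 0.785) in basal cells. In the Krt76+ Krt10-low cells it ran from 0.778, with cells thinned to 10000 UMIs, to 1.77 over the alternatives, so the opposite direction did not hold in all of them. That of *Krt15* was 0.699 in the Krt76+ Krt10-low cells, 1.09 within their middle group by keratin share, and 1.76 (1.51 to 2.07) in Krt10+ cells. With 1 library per ligand these differences between layers were not tested. Among barcodes with fewer than 800 detected genes, which entered no comparison, 20 after CpG ODN and 4 after LPS met the rest of the rule.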

How the results depend on the processing

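No paired analysis was possible because there is a single library for CpG ODN and another for LPS. The larger share of Krt76+ Krt10-low cells among keratinocytes after CpG ODN kept its direction under every alternative tried. It was 29.8% and 20.1% with *Krt10* below 0.02% of UMIs, 40.1% and 30.6% with *Krt10* below 0.1%, 23.8% and 19.1% with a keratin share of at least 20%, and 38.9% and 29.6% without cells with 5 or more UMIs of other cell types' markers. The last filter left 91 cells after LPS, where depth was higher, and the part of depth in this loss was not tested. Genes at least 2-fold higher after CpG ODN numbered 2 without thinning, without cells with other markers, without cells of 10% or more mitochondrial UMIs, or without mitochondrial and ribosomal protein genes in the CPM. They numbered 4 at a mean of 20 CPM, 0 at 200 CPM, and 5 and 19 within the groups with a keratin share under 25% and of 100% or more. Genes at least 2-fold lower numbered 6 with *Krt10* below 0.1%, 5 with a keratin share of at least 20%, 12 without cells with other markers, 9 at 20 CPM, 0 at 200 CPM, 5 without mitochondrial and ribosomal protein genes, and 7, 8 and 38 within the 3 groups by keratin share, of which the last held 41 LPS cells. Against basal cells 87 genes were higher and 110 lower at 20 CPM, 20 and 10 at 200 CPM, and 91 lower without mitochondrial and ribosomal protein genes. Against Krt10+ cells 152 were higher and 174 lower at 20 CPM, 10 and 32 at 200 CPM, 139 higher without mitochondrial and ribosomal protein genes, and 32 higher with a keratin share of at least 20%. The set of genes that passes changes with the level limit and the scaling. The counts of genes in this paragraph are therefore not shares of 1 set, and their rise or fall is not read. Of 2946 ligand ratios of 164 named genes under alternatives, 2442 stayed within their interval, 503 moved outside it, and that of *Krt42*, past 2-fold, reversed to 4.51 without 2 cells per library. Values crossed 1 for 119 genes in all, 7 of them past 1.5-fold as reported, such as *Krt4* (2.71) and *Lor* (3.22) within the middle group by keratin share and *Sparc* (0.904) with cells thinned to 10000 UMIs. *Krt15* crossed to 1.09 within that middle group. Apart from what these settings remove, the cause was not tested. After thinning, the number of LPS cells, 232 against 1270, limits the ratios.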
